A study of Canis lupus familiaris with 18 samples.

Results

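Programmed cell death in dog osteosarcoma was examined through 9 genes: the survival genes BCL2, BCL2L1 and MCL1, the killer genes BAX and BAK1, the BH3-only genes BCL2L11 and BID, the caspase inhibitor XIAP and the death receptor FAS. Every probe set that the platform annotation gave to exactly 1 of these symbols was taken, which came to 16 of the 42924 probe sets other than controls, and to 9 of the 15115 genes named in this way. The rule itself reads only the annotation. The tissue was primary osteosarcoma, the malignant bone tumour that makes bone matrix, taken from 18 dogs and measured on 1-colour arrays, 1 array per tumour. In 9 dogs the serum concentration of alkaline phosphatase (ALP), an enzyme that osteoblasts and liver release into blood, was labelled normal, and in 9 it was labelled increased. All tumours had been snap frozen at surgery, biopsy or necropsy, and the procedure for each tumour, the breed, the age, the treatment and the scan batch are not in the labels. No normal bone was measured, so levels are compared among tumours only, and the labels treat each tumour as a separate sample of its group.

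The proteins of the BCL2 family decide whether the outer membrane of the mitochondrion is opened. BAX and BAK1 form the pores, BCL2, BCL2L1 (BCL-XL) and MCL1 hold them in check, and BH3-only proteins such as BCL2L11 (BIM) and BID shift the balance towards opening, after which cytochrome c activates caspases that XIAP can block. FAS starts caspases from the cell surface, and BID carries its signal to the mitochondrion. Much of this control acts on the proteins, by cleavage, phosphorylation and turnover, and an mRNA array does not see it.

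Levels are given as log2 of the deposited signal plus 16, so that 1 unit is close to a doubling of signal for bright probe sets. For dim ones a difference on this scale is smaller than the difference in log2 signal. Of the 16 probe sets, 11 reached the level set for testing, a mean over all tumours of at least 6.15, the 40th percentile. These 11 represented 7 of the 9 genes. The single BCL2L11 probe set, all 3 of XIAP and 1 of the 2 for BAK1 lay below that level, and their differences come from a fit with no filter. Probe sets of the same gene are told apart here by the ending of their identifier, _at or _s_at. Probe sets differ in how strongly they bind, so no level was set against that of another probe set.

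Between the ALP groups, none of the 9 genes passed the test. With limma, which borrows the spread of all probe sets, 0 of the 11 tested member probe sets had an adjusted p under 0.05, against 0% of all 25754 tested. With no filter the count was 0 of 16, again against 0% of 42924. An unadjusted p under 0.05 was reached by 2 of the 11, 1 of MCL1 and 1 of BAK1, both lower with increased ALP. Over all tested probe sets 6.14% reached it in either direction and 4.22% in the lower direction. Of the 11 differences 7 were below 0, beside 48.5% of all tested probe sets, and with arrays scaled to a common 75th percentile 5 were, beside 39.4%. The tumours are mixed tissue, so fewer cells of a type and less RNA per cell cannot be told apart in any of these values.

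**Figure D1:**
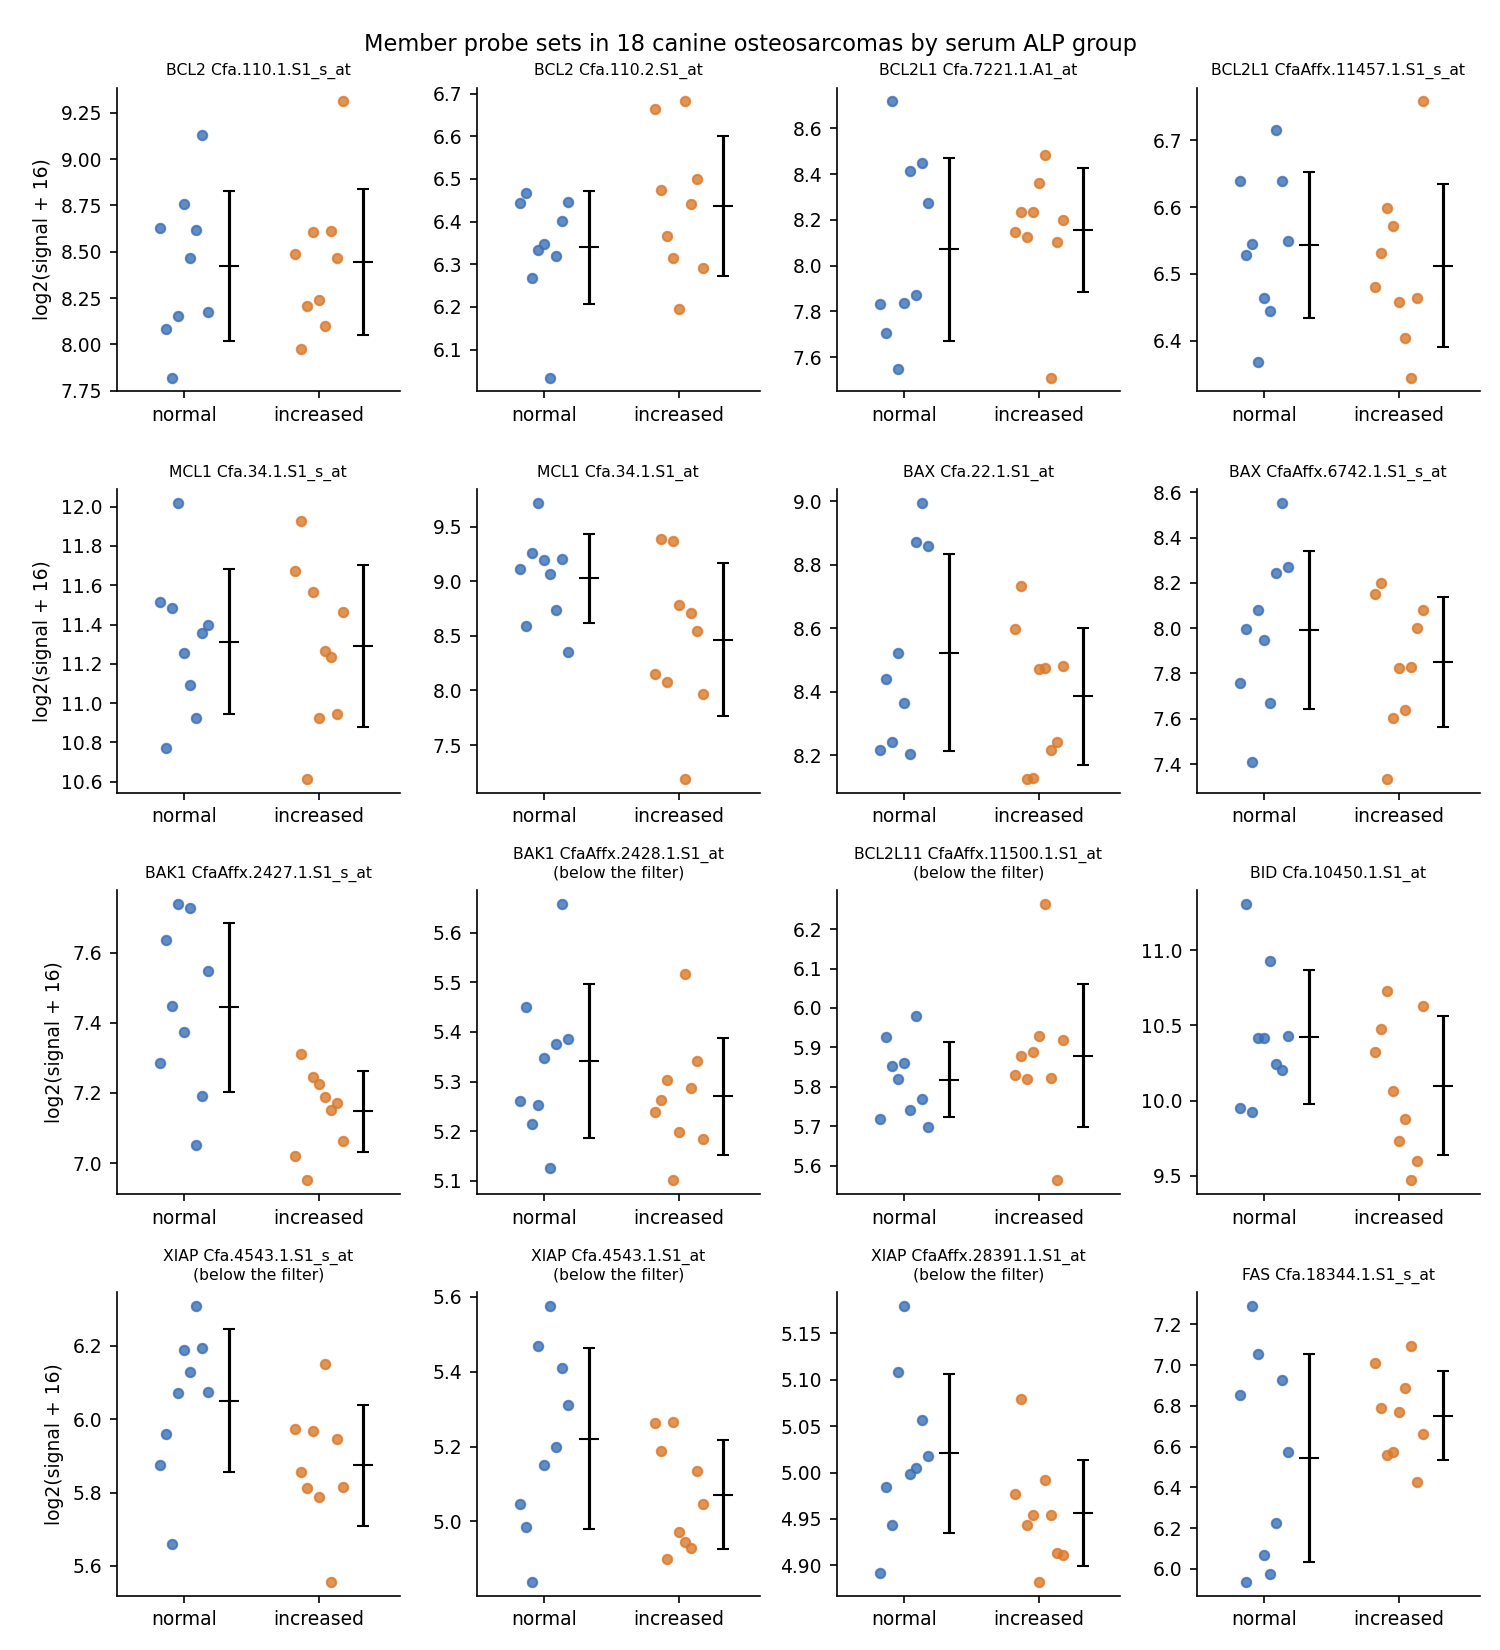
Level of each of the 16 member probe sets, as log2(signal + 16), in the 9 tumours with normal and the 9 with increased serum ALP. Each point is a tumour, and each bar gives the group mean and SD. BAK1 _s_at and MCL1 _at sit lower with increased ALP, with overlapping groups, and FAS spreads over 5.94 to 7.29 with normal and 6.43 to 7.09 with increased ALP.

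BCL2, the founding survival gene of the family, did not pass the test at either of its probe sets. Its _s_at probe set ran from 7.82 through a median of 8.46 to 9.13 with normal ALP, and from 7.98 through 8.47 to 9.31 with increased ALP. Both groups covered nearly the same range, and increased ALP tumour 9 alone lay above every normal ALP tumour. The difference, increased minus normal, was 0.02 ± 0.19 (SE, n = 9 and 9), with a 95% interval from -0.37 to 0.41. The _at probe set differed by 0.10 (interval -0.06 to 0.25), and 4 increased ALP tumours lay above the highest normal one. Without normal ALP replicate 6 it differed by 0.06.

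BCL2L1, which encodes BCL-XL, was likewise without a call. Its _at probe set ran from 7.55 through 7.87 to 8.72 with normal ALP and from 7.51 through 8.20 to 8.48 with increased ALP. The groups overlapped almost fully, and the difference was 0.08 ± 0.16 (SE), with an interval from -0.25 to 0.42. This sign turned to -0.03 with the actin measure described below as a covariate. The _s_at probe set was narrow, between 6.35 and 6.76 in all tumours, and differed by -0.03.

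MCL1, a survival protein with a short life in the cell, was read by a pair of probe sets whose ALP differences were -0.02 and -0.56, a gap that was not itself tested. The _s_at probe set ran from 10.77 through 11.36 to 12.02 with normal ALP and from 10.61 through 11.27 to 11.92 with increased ALP. Its groups overlapped nearly fully and its difference was -0.02 ± 0.18 (SE), with an interval from -0.40 to 0.35. The _at probe set ran from 8.36 through 9.11 to 9.72 with normal ALP and from 7.19 through 8.55 to 9.39 with increased ALP. Of the increased ALP tumours 4 lay below the lowest normal one, 1 normal ALP tumour lay above the highest increased one, and the rest overlapped. Its difference of -0.56 ± 0.26 (SE), with an interval from -1.11 to -0.02, had an unadjusted p of 0.0430 and an adjusted p of 0.805 by limma.

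BAX, one of the pore formers, had a pair of probe sets that gave nearly the same difference. The _at probe set ran from 8.20 through 8.44 to 9.00 with normal ALP and from 8.12 through 8.47 to 8.73 with increased ALP. The groups shared most of their range, with 3 normal ALP tumours above the highest increased one. The difference was -0.14 ± 0.13 (SE) at this probe set and -0.14 ± 0.15 at the _s_at one, with intervals from -0.42 to 0.14 and from -0.46 to 0.18. Without normal ALP replicate 8 these differences were -0.08 and -0.07.

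BAK1, the other pore former, had the smallest p of the members. Its _s_at probe set ran from 7.05 through 7.45 to 7.74 with normal ALP and from 6.95 through 7.17 to 7.31 with increased ALP. All 9 increased ALP tumours lay below the normal mean and 6 normal ALP tumours lay above the highest increased one, while the other 3 overlapped. The difference was -0.30 ± 0.10 (SE), with an interval from -0.50 to -0.09, an unadjusted p of 0.00677 and an adjusted p of 0.637 by limma. The _at probe set, below the level for testing, differed by -0.07 (interval -0.20 to 0.06).

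Of the BH3-only genes, BID was well above the filter and BCL2L11 was not. BID ran from 9.92 through 10.42 to 11.31 with normal ALP and from 9.47 through 10.06 to 10.73 with increased ALP. Of the increased ALP tumours 4 lay below the lowest normal one, and 2 normal ALP tumours above the highest increased one. Its difference was -0.32 ± 0.21 (SE), with an interval from -0.76 to 0.11 and an adjusted p of 0.853 by limma. It was -0.54 with the actin covariate and -0.21 without normal ALP replicate 2. BCL2L11 lay between 5.56 and 6.26 and differed by 0.06 (interval -0.08 to 0.21), with the lowest and the highest tumour both in the increased ALP group.

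XIAP, which binds and blocks active caspases, was dim at each of its probe sets. The _s_at probe set ran from 5.66 through 6.07 to 6.31 with normal ALP and from 5.56 through 5.86 to 6.15 with increased ALP. Of the increased ALP tumours 8 lay below the normal mean, and 3 normal ALP tumours lay above the highest increased one. The differences were -0.18 at this probe set and -0.15 and -0.06 at the pair of _at probe sets, and at the _s_at one the interval ran from -0.36 to 0.00 with an adjusted p of 0.808 by limma. Differences this close to the bottom of the scale shift with the offset: that of -0.15 became -0.25 with an offset of 1 and -0.07 with 64.

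FAS, the receptor through which immune cells and stress can start apoptosis, varied more among normal ALP tumours than between the groups. Its single probe set ran from 5.94 through 6.58 to 7.29 with normal ALP and from 6.43 through 6.77 to 7.09 with increased ALP. The increased ALP tumours lay inside the range of the normal ones, of which 4 lay below and 1 above the increased ALP group. The SD was 0.51 with normal and 0.22 with increased ALP, a difference in spread that was not tested. The means differed by 0.21 ± 0.18 (SE), with an interval from -0.16 to 0.58 and an adjusted p of 0.875 by limma. They differed by 0.13 without normal ALP replicate 2 and by 0.14 without normal ALP replicate 6.

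**Figure D2:**
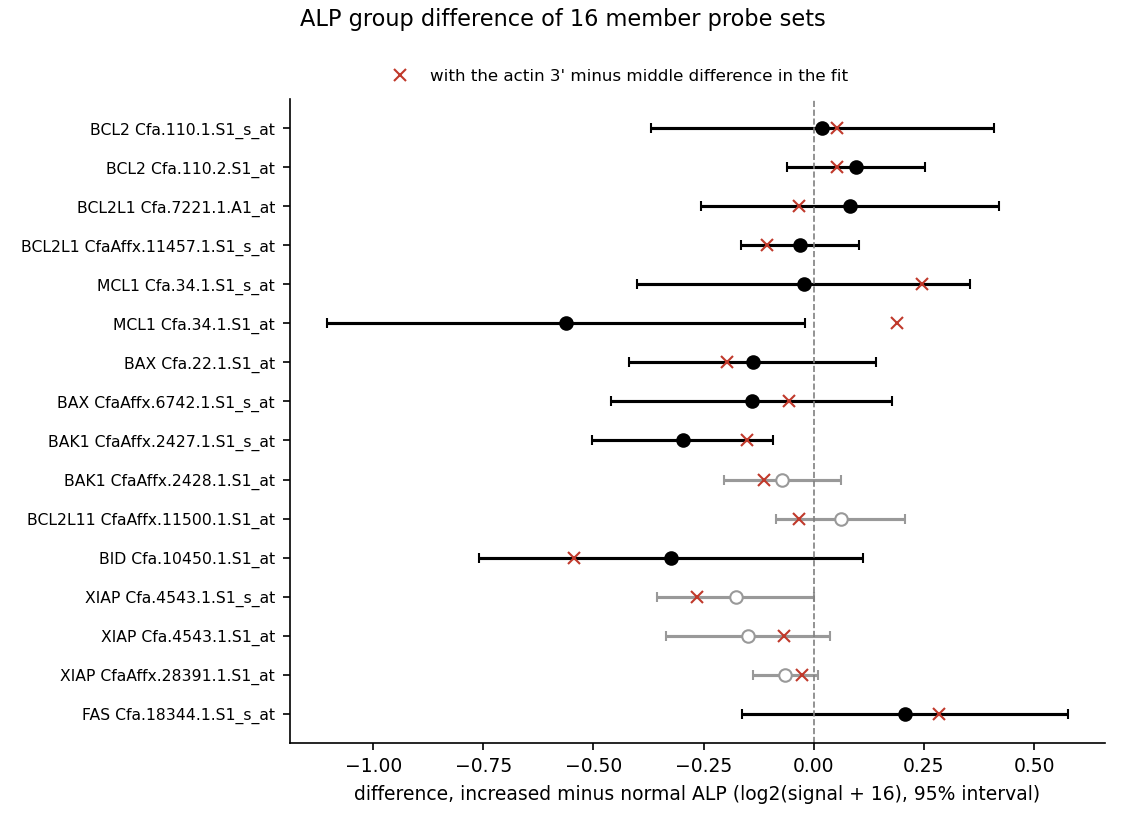
Difference in level, increased minus normal ALP, of each member probe set on the log2(signal + 16) scale, with its 95% interval from limma; open grey points are probe sets below the level for testing, and red crosses give the difference with the actin measure as a covariate. Only the intervals of MCL1 _at and BAK1 _s_at exclude 0 before adjustment, and with the covariate their differences are 0.19 and -0.15.

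The differences of MCL1 _at and BAK1 _s_at moved with 1 sign of RNA quality, an actin measure. The arrays carry control probe sets at the 3' end and the middle of the actin mRNA, and a larger gap between them is known to accompany shorter RNA. That gap, on the deposited log2 scale, ran from 1.19 through 1.40 to 1.76 with normal ALP and from 1.44 through 1.76 to 2.17 with increased ALP. Tumours with a larger gap had lower MCL1 _at (Pearson's r = -0.82, permutation p = 6e-05, adjusted over 48 relations of probe sets with quality measures 0.00288, Spearman's rho = -0.69 with a permutation p of 0.00192). Within the groups r was -0.52 with normal ALP (exact permutation p = 0.150) and -0.86 with increased ALP (exact permutation p = 0.00263), and it was -0.74 without the 2 tumours of most extreme gap. For BAK1 _s_at r was -0.69 (permutation p = 0.00168, adjusted p = 0.0403, or 0.0756 over the 135 relations described below) and rho -0.78 (permutation p = 0.000260). Within the groups it was -0.41 with normal ALP (exact permutation p = 0.281) and -0.73 with increased ALP (exact permutation p = 0.0308), and it was -0.66 without the 2 extreme tumours.

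The other MCL1 probe set, _s_at, had r = -0.32 with the gap (permutation p = 0.189, adjusted p = 0.431), with rho = -0.26. Those of MCL1 _at and BAK1 _s_at were the only 2 of the 48 relations (4.17%) with an adjusted p under 0.05. Over all genes, 3.09% of relations with the quality measures pooled had an absolute r at least as large as that of BAK1. With the actin gap alone that share was 2.0%. With the same gap taken at GAPDH, r was -0.38 for MCL1 _at (permutation p = 0.123, adjusted p = 0.348). For BAK1 _s_at it was -0.35 (permutation p = 0.152, adjusted p = 0.384). Within normal and increased ALP the GAPDH values were 0.06 and -0.38 for MCL1 _at, and -0.30 and -0.004 for BAK1 _s_at. With the gap as a covariate the ALP difference of MCL1 _at was 0.19 and that of BAK1 -0.15. The gap had a mean of 1.39 with normal and 1.79 with increased ALP, so this fit cannot fully separate the gap from ALP. Of all 25754 tested probe sets, 772 had an unadjusted p under 0.05 by limma with the covariate, beside 1582 without it. The drop was thus not limited to these 2 probe sets. Increased ALP tumours 3 and 6 had the highest spike-in levels. They also had the largest actin gaps, 2.17 and 2.12, and are the 2 extreme tumours left out above. Without that pair MCL1 _at differed by -0.33 and BAK1 by -0.28. The part of RNA quality in these differences was not tested beyond these values.

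**Figure D3:**
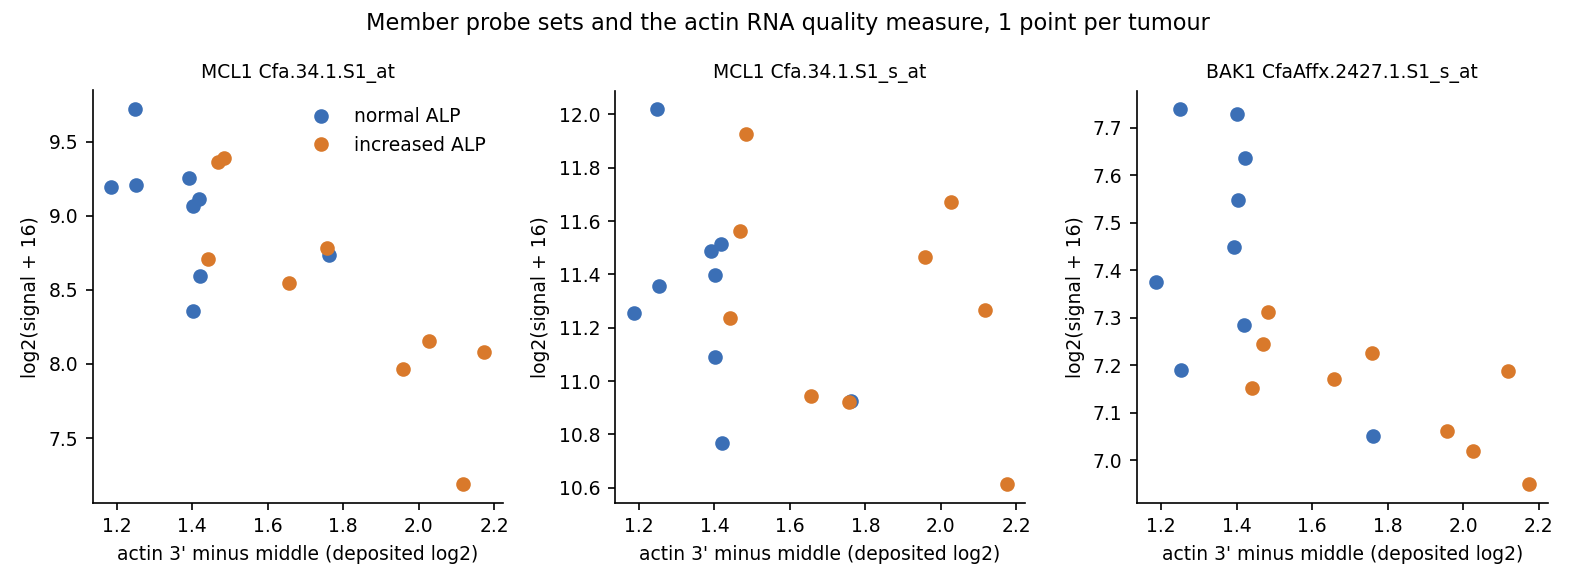
Level of MCL1 _at, MCL1 _s_at and BAK1 _s_at, as log2(signal + 16), against the gap between the 3' and middle actin control probe sets (log2), with 1 point per tumour coloured by ALP group. Levels fall along the gap for MCL1 _at (r = -0.82) and BAK1 (r = -0.69), and MCL1 _s_at has r = -0.32.

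Across the tumours the members differed in how widely they ranged. The signal of MCL1 _at covered 6.36-fold from the lowest to the highest tumour, and 81.3% of tested probe sets had a smaller spread within groups. That range rested on increased ALP tumour 6, without which it was 3.54-fold. BID covered 3.63-fold, FAS 3.11-fold and BCL2 _s_at 2.95-fold, and for these 67.4%, 57.0% and 58.2% of tested probe sets had a smaller spread. BID covered 2.79-fold without normal ALP tumour 2 and FAS 2.66-fold without normal ALP tumour 3. BCL2 _s_at covered 2.59-fold without increased ALP tumour 9. At the narrow end, BAK1 _s_at covered 1.84-fold and BCL2L1 _s_at 1.41-fold, with 16.3% and 2.57% of tested probe sets narrower. The median within-group SD of all tested probe sets was 0.36 on the log2(signal + 16) scale.

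How closely the probe sets of 1 gene followed each other was examined in 8 pairs. The pair of BAX rose and fell together over the 18 tumours (r = 0.86, adjusted over 8 pairs of probe sets 0.00016, permutation). Within the groups r was 0.92 with normal ALP (exact permutation p = 0.000234) and 0.74 with increased ALP (exact permutation p = 0.0252). For XIAP the 3 pairs had r of 0.63, 0.56 and 0.49, of which the first 2 passed the permutation test after adjustment and the last did not (adjusted p = 0.0792). The pair of MCL1 had r = 0.41 (adjusted p = 0.151 by permutation), that of BCL2L1 0.20, that of BAK1 -0.10 and that of BCL2 -0.13, none of which passed. For these last 4 genes each value above holds for its own probe set.

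For the relations that follow, each gene was read from its probe set of highest mean. For XIAP and BCL2L11 that probe set lay below the level for testing. None of the 36 pairs of members was correlated across the 18 tumours after adjustment, while 4 had an unadjusted permutation p under 0.05. An absolute r at least as large as the weakest of these 4 was met by 10.6% of all gene pairs. The median absolute r was 0.14 over the member pairs and 0.22 over all 57421686 pairs of genes, and 20 of the 36 were above 0. BID and FAS, neighbours on the route from the death receptor to the mitochondrion, had the largest absolute r, -0.58 (permutation p = 0.0103, adjusted p = 0.274, rho = -0.53). It was matched or exceeded by 4.5% of all gene pairs, and fell to -0.38 without the 2 tumours of most extreme BID. Within the groups BID and FAS had r = -0.75 with normal ALP (exact permutation p = 0.0131) and -0.22 with increased ALP (exact permutation p = 0.556). MCL1 and FAS had r = 0.56 (permutation p = 0.0152, adjusted p = 0.274), BAX and XIAP 0.51 (permutation p = 0.0307, adjusted p = 0.350) and XIAP and FAS -0.49 (permutation p = 0.0388, adjusted p = 0.350).

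**Figure D4:**
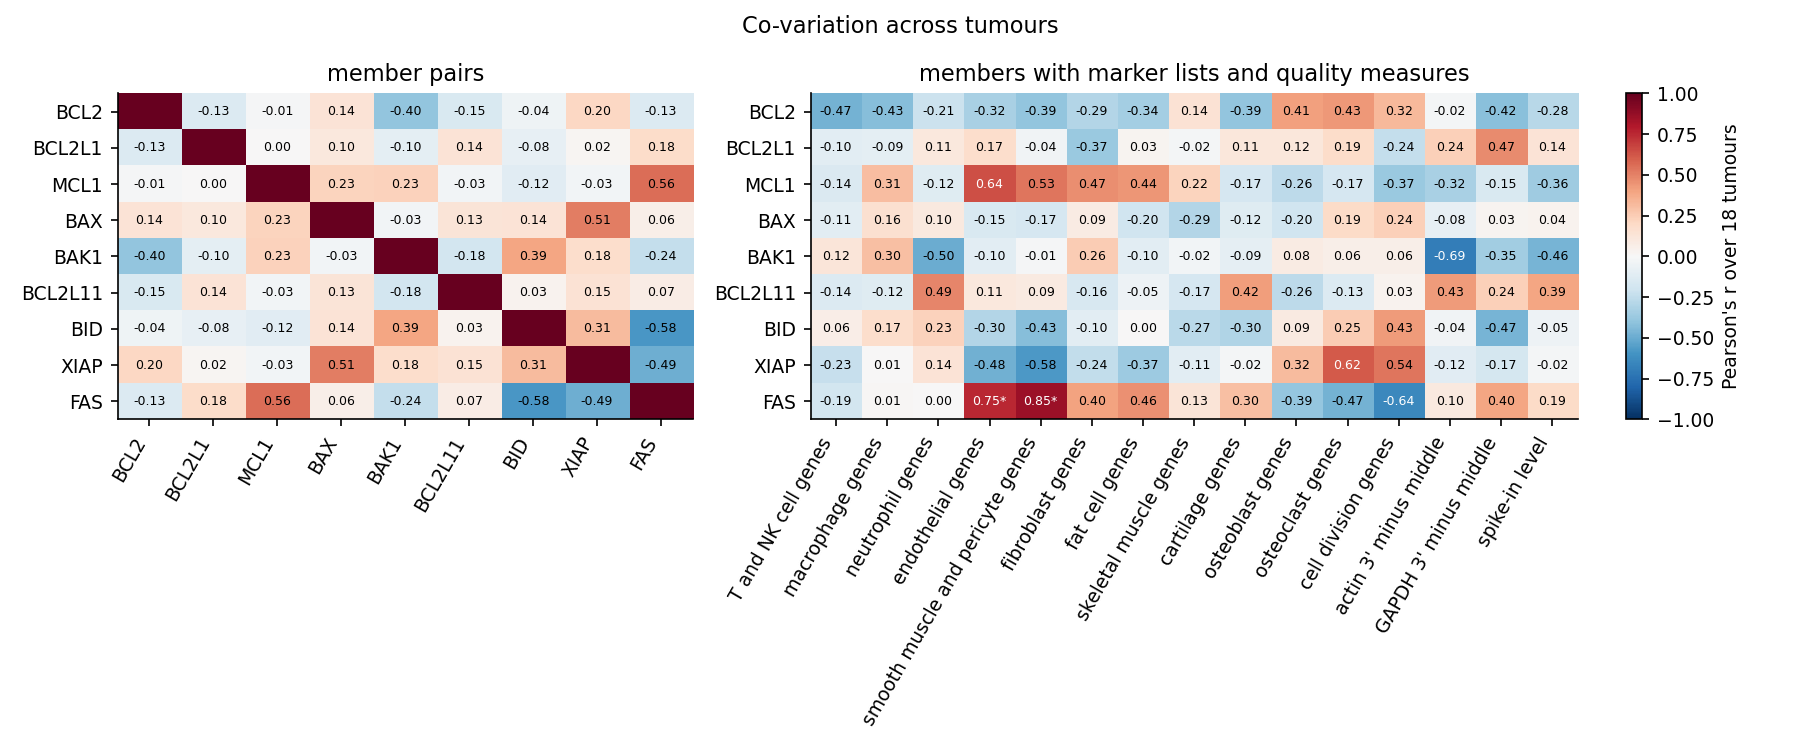
Pearson's r across the 18 tumours between the members (one panel) and between the members and the marker lists and quality measures (the other), from -1 to 1 by colour; a star marks an adjusted permutation p under 0.05. No member pair carries a star, and the starred cells are those of FAS with smooth muscle and pericyte genes (r = 0.85) and with endothelial genes (r = 0.75).

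FAS was the member for which relations with marker genes of other cell types passed the test. The members were set against 12 lists of marker genes and 3 quality measures, and 2 of the 135 relations (1.48%) passed after adjustment, both of FAS. Over all genes, 1.06% of such relations had an absolute r at least as large as the weaker of them. With the smooth muscle and pericyte list, 0.30% of genes matched or exceeded the absolute r of FAS, and with the endothelial list 1.66%. FAS was higher in tumours with more signal from smooth muscle and pericyte genes, the contractile cells of vessel walls and of some activated stroma (r = 0.85, permutation p = 2e-05, adjusted p = 0.0027, rho = 0.86 with the same permutation p). Within the groups r was 0.88 for normal ALP (exact permutation p = 0.000901) and 0.88 for increased ALP (exact permutation p = 0.00189). With 9 tumours and adjustment over the 135 relations neither passed, with adjusted exact permutation p of 0.122 and 0.255. Without the 2 tumours of most extreme list score r was 0.80.

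The list score, a mean deviation in log2 over 7 measured genes of 8, ran from -1.26 to 1.92 with normal ALP and from -1.10 to 1.23 with increased ALP, so both groups held tumours rich and poor in this signal. Here and below, a gene of a list counted as measured only if a probe set of it reached the level for testing. With endothelial genes, the markers of vessel lining, of which 11 of 11 were measured, FAS had r = 0.75 (permutation p = 0.000320, adjusted p = 0.0216, rho = 0.77 with a permutation p of 0.000290). Within the groups it was 0.74 with normal ALP (exact permutation p = 0.0279) and 0.79 with increased ALP (exact permutation p = 0.0107), and without the 2 extreme tumours it was 0.65. Neither within-group value passed after adjustment, with adjusted exact permutation p of 0.504 and 0.482. The adjusted p of this second relation passed 0.05 no longer when normal ALP tumour 2, 3, 6 or 7 was left out, with r between 0.69 and 0.75. The endothelial score ran from -1.18 to 1.0 with normal ALP and from -0.75 to 1.14 with increased ALP.

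The single gene closest to FAS across the tumours, of 10716 compared, was ACTA2, smooth muscle actin (r = 0.91, rho = 0.88). ACTA2 ran from 10.21 through 12.96 to 14.03 with normal ALP and from 11.49 through 13.26 to 13.87 with increased ALP. Tumours low in ACTA2 were low in FAS in both groups, with r = 0.94 within normal and 0.80 within increased ALP. ACTA2 is also the protein-coding gene next to FAS on the chromosome in the RefSeq gene table of the dog assembly UU_Cfam_GSD_1.0, where the annotated intervals of the genes do not overlap. Whether any signal crosses between their probe sets was not tested. With ACTA2 left out of the list, a choice made after its value was seen, FAS had r = 0.79 with the 6 remaining genes, 0.83 within normal and 0.85 within increased ALP.

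One by one, FAS had r = 0.74 with TAGLN, 0.72 with the smooth muscle myosin MYH11, 0.70 with the calponin CNN1, 0.60 with the pericyte marker RGS5, 0.50 with the receptor PDGFRB and 0.22 with desmin, DES. After ACTA2, the closest genes to FAS were STX4 (r = 0.89, rho = 0.87) and MYO1C (r = 0.86, rho = 0.89).

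**Figure D5:**
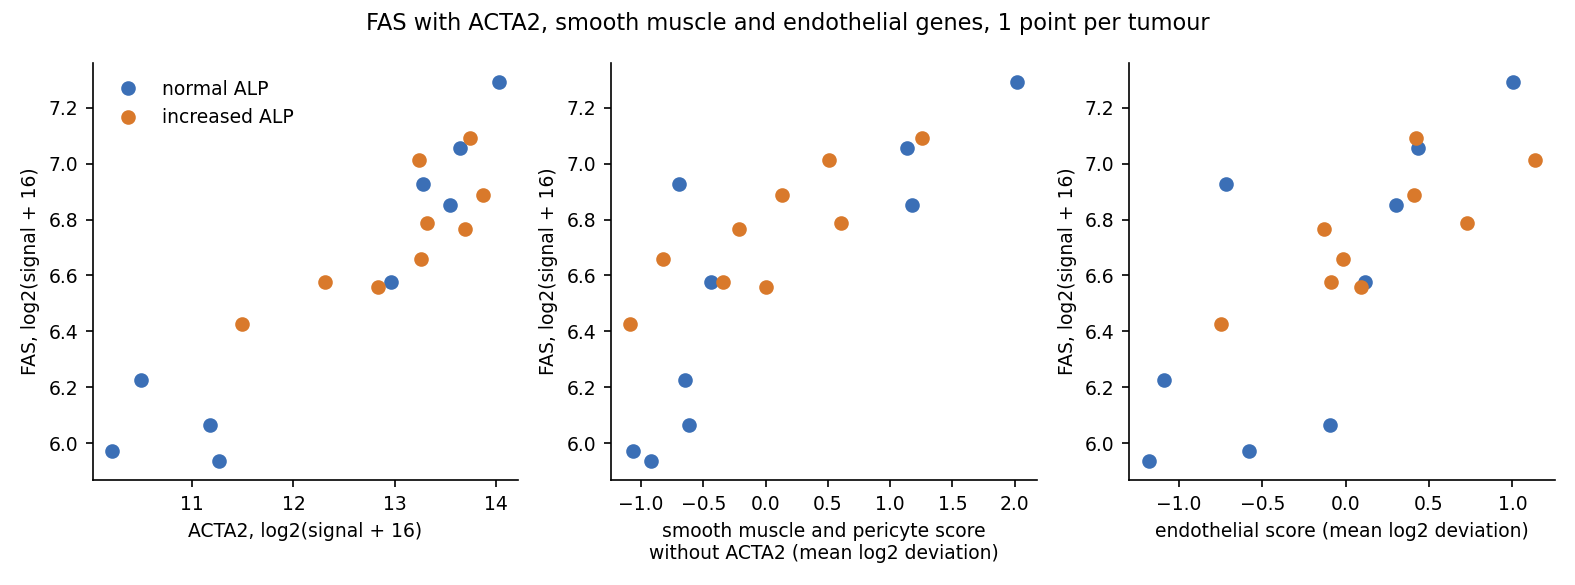
Level of FAS, as log2(signal + 16), against ACTA2 on the same scale, against the score of the smooth muscle and pericyte genes without ACTA2, and against the endothelial score (mean log2 deviation), with 1 point per tumour coloured by ALP group. FAS rises with each (r = 0.91, 0.79 and 0.75), and the 4 lowest FAS levels, 5.94 to 6.23, are all of normal ALP tumours.

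With the list of cell division genes FAS had r = -0.64 (permutation p = 0.00319, adjusted p = 0.103), and -0.61 within normal ALP and -0.84 within increased ALP. MCL1 had r = 0.64 with endothelial genes (permutation p = 0.00382, adjusted p = 0.103), and 0.79 within normal ALP and 0.60 within increased ALP. XIAP had r = 0.62 with osteoclast genes (permutation p = 0.00671, adjusted p = 0.151). These 3 did not pass, nor did any other relation of a member with the lists for T and NK cells, macrophages, neutrophils, osteoblasts, fibroblasts, fat cells, skeletal muscle or cartilage. B and plasma cell genes, of which 2 of 7 were measured, were not used. BCL2, a gene that resting lymphocytes are known to express strongly, had r = -0.47 with the T and NK cell genes (adjusted p = 0.386 by permutation).

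The genes whose levels were most like each other member's are given as a description of the same 18 arrays. They were picked for the highest r over all genes compared, and none was tested. XIAP and BCL2L11 were read from probe sets below the level for testing. XIAP was closest to CDKN1A, the p21 inhibitor of the cell cycle (r = 0.88, rho = 0.79), with r of 0.85 within normal and 0.97 within increased ALP. Next to XIAP came UBQLN1 and COQ10A (r = 0.80 each). MCL1 was closest to AGFG1 (r = 0.85), BAG1, a chaperone partner that binds BCL2 (r = 0.84), and NCOA7 (r = 0.83). BCL2 was closest to LIPC and SH3RF1 (r = 0.80 each) and CTSO (r = 0.78), and BCL2L1 to GDPD3 (r = 0.77), CRTC2 (r = 0.75) and C6H7orf61 (r = 0.73). BAX was closest to OSBPL3 (r = 0.80), GRIPAP1 (r = 0.78) and RFXAP (r = 0.77), and BAK1 to ASB8 (r = 0.80), FAM114A2 (r = 0.80) and GSKIP (r = 0.78). BID was closest to LOC486607 (r = 0.83), WBP11 (r = 0.81) and NECAP1 (r = 0.78). BCL2L11 was closest to LOC485342 (r = 0.82), but that value rested on few tumours, with rho = 0.46 and r = 0.33 without the 2 tumours of most extreme BCL2L11. Its next genes were TEX36 and C11H9orf43 (r = 0.75 each).

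Around the members, the rest of the apoptosis machinery was read from 5 lists, each gene by 1 probe set that reached the level for testing. None of their genes had an adjusted p under 0.05 between the ALP groups by limma, and 2 had an unadjusted p under 0.05, beside 521 of the 10717 genes tested. Of all 10717 genes 5721 were higher and 4996 lower with increased ALP, with a median difference of 0.01. Of 15 death receptor and signalling genes 14 were measured, 5 higher and 9 lower with increased ALP, with a median of -0.04. RIPK1, the kinase that couples death receptors to survival or death, differed by -0.34 (SE 0.15, adjusted p = 0.778 by limma), CASP8, which FAS activates, by -0.56, and CFLAR, which restrains CASP8, by 0.10. The receptor TNFRSF21 differed by 0.28. A second probe set of CFLAR differed by -0.05 and one of TNFRSF21 by -0.35, so neither gene has a settled direction.

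Of 15 genes of the apoptosome, the caspases and the proteins released from mitochondria 12 were measured, 3 higher and 9 lower, with a median of -0.13. With no filter 13 could be read, 3 higher and 10 lower, with a median of -0.10. Among them CYCS, cytochrome c, differed by -0.27, the endonuclease ENDOG by -0.26, the executioner caspase CASP6 by -0.24 and DFFA, which holds a DNA-cutting nuclease in check, by -0.16. With the actin covariate the same list had 6 higher and 6 lower and a median of 0.01, beside 5465 higher and 5252 lower of all genes. Of 7 other inhibitor of apoptosis genes 6 were measured, 3 each way, with a median of 0.01. BIRC2 differed by -0.24 (SE 0.12, adjusted p = 0.808 by limma) and BIRC5, survivin, which also serves cell division, by 0.33. A second BIRC2 probe set differed by -0.53 (SE 0.16, unadjusted p = 0.00308 and adjusted p = 0.608 by limma), and one of BIRC5 by 0.09. BIRC7 differed by 0.07 and BIRC6 by -0.03, with -0.35 and 0.09 at other BIRC6 probe sets.

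Of 11 other BH3-only and killer genes 7 were measured, 3 higher and 4 lower, with a median of -0.02. BCL2L13 differed by -0.19, BNIP3L, which also serves the removal of mitochondria, by 0.17, BMF by 0.07 and BCL2L14 by 0.05. A second BCL2L13 probe set went the other way, by 0.09. Only 2 of the 4 other survival genes were measured, and both were higher, BCL2A1 by 0.51 (SE 0.58) and BCL2L2 by 0.17, but with the actin covariate 1 was higher and 1 lower, with a median of 0.03 in place of 0.34. The direction counts also moved with the scaling. With arrays scaled to the 75th percentile, the BH3-only and killer list had 6 higher and 1 lower. The inhibitor list had 5 and 1, and the death receptor list 7 and 7. Of all genes 6747 were then higher and 3970 lower, with a median of 0.05. Across the tumours, none of the 369 relations of a member with a gene of these lists passed after adjustment, and 34 had an unadjusted permutation p under 0.05. An absolute r at least as large as the weakest of the 34 was met by 12.3% of all gene pairs. The largest absolute r was that of BID with BCL2L13, 0.77 (permutation p = 0.000240, adjusted p = 0.0886), with 0.77 within normal ALP and 0.74 within increased ALP. BAK1 had r = -0.67 with BIRC7, FAS -0.66 with CYCS and MCL1 0.65 with CFLAR.

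The arrays were close in scale, with medians between 6.25 and 6.31 and upper quartiles between 8.01 and 8.27 on the deposited log2 scale, and rank correlations between arrays of 0.82 to 0.95. At most 0.0999% of values were equal between any 2 arrays. Of 12 osteoblast marker genes 10 were measured in these osteosarcomas, with list scores from -1.59 to 0.99 with normal and from -2.0 to 1.49 with increased ALP. The number of arrays, 9 per group, limits the precision of every difference above.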

How the data were processed

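RNA was extracted with TRIzol and hybridised as biotin-labelled cRNA to 1-colour Affymetrix canine arrays, per the labels' protocols. The deposited values are log2 signals per probe set, and MAS5 is named, with no version or step, per the submitters' processing notes. Their normalization and genome build are not given in the sources used here, and detection calls were not used here, so whether a probe set lay above background is not known. Values were returned to the linear scale, 16 was added and log2 was taken again. Of 43035 probe sets 111 controls were set aside, and 25754 with a mean at or above the 40th percentile were tested. Names came from the platform annotation, with 29254 probe sets of 1 symbol, 439 of several and 13231 unlisted. RefSeq identifiers were found for 27680, and none of the 16 member names changed.

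ALP groups, as in the labels, were compared with limma 3.58.1 (R 4.3.3), with its variance model following intensity, by a two-sided test adjusted over all probe sets tested after Benjamini and Hochberg. The procedure was tested on simulated data. Correlations were computed in Python 3.11.15 with SciPy 1.17.1, with 100000 permutations over 18 tumours and exact permutations within groups, two-sided, adjusted within each family of relations. Each list was scored per tumour by averaging, over its genes, the deviation from the gene's mean over tumours, and lists with fewer than 3 measured genes were not used. Every member was named, with its 3 genes of highest r and up to 4 genes of smallest p per apoptosis list. The members, lists and tests were chosen with earlier results of these data known. The alternatives were other offsets, filters, scalings and variance models, array weights, a replicate block, quality covariates and leaving out tumours.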

Additional observations from a re-analysis of the deposited data

Results flagged for a closer look

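Of 38 sets of 9 values that were examined for a tumour far from the others of its group, by Dixon's ratio of gap to range, 4 held one, and chance gives about 1 in 20. BCL2 _s_at was 9.31 in increased ALP tumour 9, while the others of that group lay between 7.98 and 8.61. The other BCL2 probe set, ending in _at, was 6.03 in normal ALP tumour 6, below the rest of its group at 6.27 to 6.47. BCL2L1 _at was 7.51 in increased ALP tumour 7, below the rest at 8.10 to 8.48. The gap between the 3' and middle actin probe sets was 1.76 in normal ALP tumour 7, above the rest of its group at 1.19 to 1.42. This tumour had the lowest BAK1 _s_at of its group, 7.05. Its MCL1 _at, 8.74, was not the lowest of its group, which ran from 8.36 to 9.72.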

How the results depend on the processing

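No probe set and no member was called between the ALP groups under any alternative run, and none of the 36 member pairs was called. Some differences turned sign. With the actin covariate MCL1 _at came to 0.19, MCL1 _s_at to 0.25, BCL2L1 _at to -0.033 and BCL2L11 to -0.034. With the GAPDH covariate MCL1 _s_at came to 0.022 and BCL2L1 _at to -0.035. With quantile normalization MCL1 _s_at came to 0.010, with scaling to the 75th percentile to 0.022, and without increased ALP replicates 3 and 6 to 0.077. That scaling also gave 0.0055 for BCL2L1 _s_at. Leaving out 1 tumour at a time, BCL2 _s_at ran from -0.089 to 0.11 and MCL1 _s_at from -0.10 to 0.065. The cause of these turns was not tested.

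The count of member relations with marker lists and quality measures, 2, was 1 without normal ALP 1 and increased ALP 4, 0 within the 9 normal ALP tumours and 0 within the 9 increased ALP tumours, where fewer samples remain. It was 3 with Spearman's rho, with the mean of a gene's probe sets, with actin or GAPDH residuals and without increased ALP replicates 3 and 6. It ran from 1 to 4 with 1 tumour left out: 1 without normal ALP tumour 2, 3, 6 or 7, and 4 without normal ALP tumour 8. With the replicate number as a block 0 probe sets were called, and the smallest adjusted p by limma was 0.068, beside 0.608 without the block. The labels give same-numbered tumours no shared dog or batch. Their deviations had r from -0.16 to 0.27, with a median of 0.094 beside -0.007 for other pairs. Of 9 pairs 0 correlated best with their own number, a count that cannot show whether any tumours are paired. The 60th percentile filter leaves out FAS, BCL2 _at and BCL2L1 _s_at. The 5 probe sets below the level for testing, of XIAP, BCL2L11 and BAK1, may read little of their gene.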
